A study of Mus musculus with 6 samples.

Results

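The regions described here are stretches of open chromatin between genes, at an intermediate distance from the nearest gene, that nearly every sample of long-term haematopoietic stem cells shared. Peaks on chromosomes 1 to 19 of 6 peak lists were merged where they overlapped by at least 1 bp, which gave 844567 regions. A region was kept where 5 or 6 of the lists called it, where it lay outside every protein-coding gene, and where the nearest end of such a gene was more than 5 kb and less than 100 kb away. These limits left 2911 regions, here called members, which are 15.7% of the 18590 regions that 5 or 6 lists called anywhere on these chromosomes. Of all 219039 called regions in the same intergenic position, 1.33% were called in 5 or 6 lists. All 6 lists called 1048 members, and 5 lists called the other 1863. The members were thus chosen by the calls of the lists, which rest on the -log10 p of each peak, so how many lists called a member is a description and not a result.

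Open chromatin was measured by ATAC-seq, in which a transposase inserts sequencing adapters where DNA is not covered by nucleosomes. The cells came from bone marrow of C57BL/6 mice, 3 samples labelled aged and 3 labelled young, and were sorted as lineage-negative, Kit-positive and Sca1-positive cells that lack Flk2 and Cd34. All 6 samples, young ones included, spent a night in culture at 3% oxygen, so no group shows cells taken straight from the marrow. Ages in weeks and sex are not part of the labels. Nor do they say that each list stands for an animal of its own, so the spread between lists may be technical. The sample titles add an "exp" number that an aged and a young sample share (2, 5 and 3 for replicates 1, 2 and 3), and its meaning is not given. Another number stands before "exp" in each title, and its meaning is not given either. That number is equal between the ages for replicates 2 and 3, and larger in aged than in young replicate 1. Whether it bears on the length or the calls of the lists was not tested. The study's title concerns X inactivation in old stem cells, and the comparison made here asks how autosomal intergenic regions stand at each age.

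The lists differed in length and in how many members they called. In a bulk sample a weak peak can come from few open cells or from many partly open ones, which cannot be told apart. They held 107804 to 252914 distinct peaks, and the number of reads behind them is not known. Young replicate 2 called 63.9% of the members (95% Wilson interval 62.1 to 65.6%) and aged replicate 3 called 76.2% (74.6 to 77.7%), while the other 4 lists called 98.1 to 99.7%. The former are called the low-calling lists here. These intervals cover counting error over regions only. Young replicate 2 also gave its peaks 200 distinct -log10 p values, against 2563 to 22460 in the other lists, so many of its peaks are tied. Of the 1863 members called in 5 lists, 1052 (56.5%) lacked young replicate 2 and 692 (37.1%) lacked aged replicate 3. Over all 9214 shared regions called in 5 lists these shares were 61.7% and 32.7%. A peak within 1 kb of a gene end was present in all 6 lists for 4 of 8 markers of the sorted cells (Kit, Procr, Hlf and Meis1), in 5 lists for Mecom, in 4 for Ly6a, and in 1 for Slamf1. Of 10 markers of lineage-positive cells, 0 had such a peak in all 6 lists and 3 had one in 5, and of 5 stromal and endothelial markers 0 and 2 did. Cd34, whose protein the gate excluded, had one in 5 lists.

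Away from promoters, open chromatin commonly marks enhancers, insulators and the promoters of non-coding genes. Enhancers are bound by transcription factors and can act on genes far along the chromosome, which need not be the nearest ones, so the nearest gene gives a region a name and not a target. In blood stem cells, factors such as Runx1, Gata2, Tal1, Lmo2, Fli1 and Erg are known to bind many such elements. Promoters of housekeeping genes and of many long non-coding RNAs lie in CpG islands, stretches in which the CpG dinucleotide has not been lost.

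Sequence could be read for members that cover the annotated start of a long non-coding RNA, and the following windows show what the strongest of these carry. They are the start windows of the 5 members with the highest mean percentile that contain such a window whole, and were chosen after their values were seen. Each is printed 5′ to 3′ on the strand of its gene, from 250 bases before to 50 after the start, from RefSeq on GRCm38.p6, of which mm10 is the browser name. Capitals mark matches, on either strand, to short motifs of known factor families. For ETS factors the letters were CCGGAAG, for SP and KLF factors GGGCGG, for the NFY complex CCAAT and for YY1 AAGATGGC. For RUNX factors they were TGTGGT, for AP-1 TGANTCA and for GATA factors AGATAA. The CRE was searched as TGACGTCA, the NRF1 motif as GCATGCGC and the TATA box as TATAAA. Overlapping matches were all counted.
Gm29638, chr7:12949735-12950034, plus strand: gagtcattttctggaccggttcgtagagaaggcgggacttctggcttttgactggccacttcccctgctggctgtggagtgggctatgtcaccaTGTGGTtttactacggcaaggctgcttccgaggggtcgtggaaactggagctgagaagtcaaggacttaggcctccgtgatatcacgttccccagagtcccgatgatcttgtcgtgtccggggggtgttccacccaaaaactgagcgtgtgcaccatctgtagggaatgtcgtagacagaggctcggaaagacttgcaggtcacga
1700096K18Rik, chr5:25529768-25530067, plus strand: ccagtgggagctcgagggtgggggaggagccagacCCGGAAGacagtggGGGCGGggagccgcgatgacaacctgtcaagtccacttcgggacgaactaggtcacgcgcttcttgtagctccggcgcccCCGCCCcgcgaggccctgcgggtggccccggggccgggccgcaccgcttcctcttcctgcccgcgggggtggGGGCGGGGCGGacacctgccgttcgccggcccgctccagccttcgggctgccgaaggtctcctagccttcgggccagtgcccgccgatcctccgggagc
Chaserr, chr7:73558346-73558645, minus strand: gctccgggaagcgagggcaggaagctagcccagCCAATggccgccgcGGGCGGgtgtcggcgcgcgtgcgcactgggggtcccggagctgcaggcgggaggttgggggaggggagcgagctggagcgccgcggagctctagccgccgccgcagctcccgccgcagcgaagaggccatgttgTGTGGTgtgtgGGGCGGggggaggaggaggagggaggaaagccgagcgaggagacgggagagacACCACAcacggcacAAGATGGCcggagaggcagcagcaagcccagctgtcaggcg
4930554I06Rik, chr19:21104460-21104759, plus strand: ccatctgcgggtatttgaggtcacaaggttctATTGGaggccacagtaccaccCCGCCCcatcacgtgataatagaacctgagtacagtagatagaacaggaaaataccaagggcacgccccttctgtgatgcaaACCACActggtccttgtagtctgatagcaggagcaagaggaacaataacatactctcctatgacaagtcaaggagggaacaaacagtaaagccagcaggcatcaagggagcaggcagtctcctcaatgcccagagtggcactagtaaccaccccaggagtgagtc
Mir22hg, chr11:75461289-75461588, plus strand: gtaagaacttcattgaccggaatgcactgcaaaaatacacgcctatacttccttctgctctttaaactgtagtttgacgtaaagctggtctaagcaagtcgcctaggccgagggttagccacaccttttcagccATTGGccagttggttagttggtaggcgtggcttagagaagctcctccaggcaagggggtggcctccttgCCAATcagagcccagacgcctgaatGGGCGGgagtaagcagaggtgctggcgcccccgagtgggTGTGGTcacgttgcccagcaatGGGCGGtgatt

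The windows differ in base composition and in what they match. That of 1700096K18Rik was 74% G and C with 4 SP/KLF matches and 1 ETS match, and that of Chaserr, a long non-coding RNA next to the chromatin remodeller Chd2, was 72.3% G and C with 6 matches, among them 2 SP/KLF and 1 YY1. The windows of Mir22hg, the host transcript of miR-22, and of Gm29638 were 54.7% and 55.3% G and C, with 5 matches and 1. The window of 4930554I06Rik was 50.7% G and C, with 3. The ratio of observed to expected CpG was 0.804 and 0.826 in the 2 windows richest in G and C, 0.667 in Gm29638, 0.541 in Mir22hg and 0.208 in 4930554I06Rik. A match is a string of letters and not a bound site.

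Start windows under shared regions were richer in G and C than uncalled ones, and close in this to start windows at large. Of the start windows of long non-coding RNAs that lay in the same intergenic position, 3065 were called in no list, 1196 in 1 to 4 and 218 in 5 or 6. Their median G and C content was 46.7%, 49% and 54.3% in that order, beside 53% over all 31395 start windows of the table, most of them of coding genes. A CpG ratio over 0.6 was found in 3.62%, 5.94% and 36.2%, beside 36.4% over all windows. GGGCGG was present in 7.44%, 11.5% and 37.6%, beside 36% of all windows, and CCGGAAG in 2.77%, 3.34% and 8.72%, beside 9%. TGANTCA took another course, with 9.85%, 12% and 15.6%, beside 7.85% of all windows. TGTGGT differed little with calling, at 22.5%, 21.2% and 23.4%, beside 16.7%, and AGATAA was found in 16.3%, 14.4% and 11.5%, beside 11.2%. TATAAA was present in 17.3%, 13.9% and 10.6%, beside 13.6%.

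The members with the strongest peaks formed a short and mixed group. Strength is given as the percentile of a peak's -log10 p within its own list, since lists of unequal depth share no scale, and a region called in all 6 lists is ranked by the mean of its 6 percentiles. The lists also differ in length, so an overlap of the ages in percentile only describes these values. Ages are compared further on by ranks over the same regions, and the measures can differ. A member near Pck1 overlapped between ages in percentile, at 80.9, 91.4 and 66.1 in the aged and 97.9, 80.4 and 94.5 in the young lists. Its ranks did not overlap. The strongest member lay at chr16:91534514-91534765, upstream of Ifngr2 and 12294 bp from it, in the gap between the genes of the type I and type II interferon receptors Ifnar1 and Ifngr2. Its percentiles were 99.8, 99.998 and 99.97 in aged replicates 1, 2 and 3, and 99.9, 99.3 and 99.99 in young replicates 1, 2 and 3. It stood in the top 1% of every list, and the ages overlapped. It was also among the narrowest, with peaks of 233 to 252 bp in the 6 lists, and its -log10 p reached 339 in aged replicate 2 and 311 in young replicate 3, where the median member had 25.7 and 27.3.

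The next in order were wider. The second lay 10919 bp from Ap1m1, which encodes an adaptor subunit for sorting at the trans-Golgi, and in the same gap as Klf2, 50083 bp away. It spanned 675 bp, and stood at 99.9, 99.7 and 99.4 in the aged lists and at 99.98, 99.96 and 99.4 in the young ones. A region of 1473 bp near Zfp958, over the pseudogene Gm6410, was the widest of the 10, and its lowest percentile was 99.2, in young replicate 2. The others lay nearest to Lrrc6 (over Gm31006), Zfp324 (over 1810019N24Rik and the start of Gm29638), Cct8l1 (at the start of 1700096K18Rik), Slc7a15 (over 5033421B08Rik), Glis2, Gm41291 and Chd2 (over Gm30149), with mean percentiles from 99.56 to 99.60. Among these 10 members, 6 overlapped a non-coding gene of the table and 2 covered a non-coding start window. Among the 100 strongest, 35 and 13 did, beside 29.4% and 6.53% of all members. Chd2 was the nearest gene of 4 members, and 3 of them, the start of Chaserr included, had mean percentiles of 99.56, 99.56 and 99.46.

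Genes that regulate blood stem cells were often the nearest gene of a member. Over all 20661 protein-coding genes, 10.3% were the nearest gene of at least 1 member, and of the 12912 that were nearest to any called region in the same position, 16.5% were. Of 35 stem-cell regulators 16 had a member, which is 55.2% of the 29 with any such region. Genes of developmental regulators often have long flanks, so the count was also taken per length of flank: the list had 10.1 members per Mb of its intergenic territory, and all genes had 4.65. This is a count beside its background and no test, and the gene lists were chosen with earlier results of these data known. Housekeeping genes had 16.1 per Mb and myeloid factors 14.7, so such a density is not particular to stem-cell regulators. Lymphoid factors had 6.52, and erythroid, platelet and mast cell factors 8.83. Of the binding factors named above, Lmo2 and Fli1 had a member, whereas Runx1, Gata2, Tal1 and Erg had none. The limits leave out regions inside genes or within 5 kb of them, so these counts do not cover such regions. Leaving out young replicate 2 or aged replicate 3 gave 18 genes in place of 16, while the count over all genes went from 2127 to 3287 and 3357.

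Kit, the receptor for stem cell factor, had 3 members, and the strongest lay 73865 bp from the gene. Its percentiles were 99.4, 97.9 and 99.5 in the aged lists and 99.8, 99.3 and 97.5 in the young, so that it was high in all 6 lists and the ages overlapped. The single member of Hlf, a leucine-zipper factor that marks stem cells, lay upstream at 26923 bp, with 98.3, 95.6 and 98.3 in the aged and 97.7, 99.1 and 97.8 in the young lists. Bcl11a, a zinc-finger repressor of fetal globin, had 3 members, all downstream. The strongest was called in 5 lists at 99.9, 97.3, 96.9, 99.5 and 98.7, and was missing from young replicate 2. Young replicate 2 likewise lacked the strongest members of Lmo2, a bridging subunit of stem-cell transcription complexes, of Meis1, a homeodomain partner of Hox proteins, and of Tcf15, a helix-loop-helix factor. The strongest member of a gene or cluster is that with the highest mean percentile over the lists that call it. Young replicate 2 had the lowest median percentile of members, 73.1, so this choice can favour members that it lacked. The pair of members downstream of Gfi1b, a transcriptional repressor needed for red cell and platelet development, were called in all 6 lists at mean percentiles of 86.8 and 91.7. That of Ikzf2, an Ikaros family factor, stood at 97.8 to 99.2 in 5 lists and at 73.1 in young replicate 2.

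Among these lists, which were not chosen blind to the data, early-response genes had the highest density of members. Such genes are transcribed almost at once when a cell is stimulated. Of 31 of them, 17 had a member (65.4% of 26 with any region, 22.2 members per Mb, 39 members in all), and 18 did without either of the low-calling lists. Zfp36l2, which binds AU-rich messenger RNAs and hastens their decay, had 7 members, and its relative Zfp36l1 had 4. Ier5 and Klf6 had 4 each, and Btg2, an antiproliferative gene, had 3. Fos, a subunit of the AP-1 factor, had 2 members at mean percentiles of 97.7 and 99.2. The stronger one, upstream at 18083 bp, had 99.8, 99.9 and 97.7 in the aged and 99.9, 98.2 and 99.7 in the young lists, which overlap. Ier3 and Fosb also had 2 each. Their strongest members stood at 93.7 to 99.7 in 5 lists, and at 61.5 and 57.4 in young replicate 2.

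Genes of cytokine and interferon signalling followed closely, with 14 of 28 (56% of 25, 21.1 members per Mb). Tnfaip3, which encodes the ubiquitin-editing inhibitor of NF-κB known as A20, had 7 members at 28356 to 89237 bp. Receptor genes came next: Ifngr1 had 3 members and Ifnar1 had 2, and the strongest of Ifnar1 lay 12322 bp downstream with 97.8, 95.5 and 88.1 in the aged and 98.6, 98.6 and 96.4 in the young lists. Aged replicate 3 was lowest, and the ages overlapped. Among transcription factors, Irf1, Irf2 and Nfkb1 had 2 each. The inhibitors Smad7 and Socs3 also had 2 each, and both members of Irf1 were called in all 6 lists.

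Adhesion and niche receptors had members for 12 of 21 genes (66.7% of 18, 19.5 per Mb). The tetraspanin Cd9 and the sphingosine-1-phosphate receptor S1pr1, which guides exit from tissues into blood, had 5 each. The best member of S1pr1, at 20493 bp, had 97.5, 92.3 and 75.7 in the aged and 93.1, 99.8 and 92.7 in the young lists, with aged replicate 3 lowest and the ages overlapping. Cd34, whose protein the sorted cells lack at the surface, had 4 members, of which 0 were called in all 6 lists. Cxcr4, the receptor that holds stem cells in the marrow, had 2, both upstream and both called in 6 lists. The stronger, 1088 bp wide, stood at 99.8, 98.9 and 98.4 in the aged lists and at 99.7, 53.7 and 98.4 in the young, so young replicate 2 alone was low. Cd69, Cd44 and Ptprc, which encodes CD45, had 2 each, and Jam3 had 1.

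Factors of the blood lineages had members less uniformly. Of 17 myeloid genes 5 had one (35.7% of 14, 14.7 per Mb), and 8 did without either low-calling list. Cebpb, a leucine-zipper factor of granulocytes and macrophages, held 7 of the 13 members of that list, all of them downstream. Klf4 and Nfil3 had 2 each, and Csf3r had 1. Of 22 lymphoid genes 8 had one (40% of 20, 6.52 per Mb). Id2, an inhibitor of helix-loop-helix factors, had 4, all upstream, and the single member of Ikzf1, the Ikaros gene, stood at 98.4, 98.2 and 90.5 in the aged and 99.6, 97.6 and 94.3 in the young lists. Tcf7, Ets1, Notch1, Tcf3, Lef1 and Id3 had 1 each, and that of Id3 was among the weakest named here, at 12.8 to 50.9 in the 5 lists that called it. Of 16 erythroid, platelet and mast cell genes 4 had one (33.3% of 12, 8.83 per Mb): Gfi1b, Itgb3, Bach2 and Mitf.

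Genes of mature blood cells had no member, out of little territory. Of 22 effector genes, such as those of neutrophil granules, globins and lymphocyte receptors, 0 had a member, and so 0% of the 15 that were nearest to any called region. Their territory was 0.185 Mb, so few members would fall in it even at the density over all genes, and the count does not set these genes apart. Without aged replicate 3, 1 of them had a member. Of 13 housekeeping genes on these chromosomes 2 had members, Actb and Ywhaz, which is 40% of the 5 with any region and 16.1 per Mb.

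Most genes with a member had just 1. Of 2127 genes, 1590 had 1 member, 374 had 2, 109 had 3, 37 had 4, 10 had 5, 1 had 6 and 6 had 7. The 15 genes with most members were Cstad, Cebpb, Zfp36l2, Azin1, Ly86 and Tnfaip3 with 7 each, Ptp4a2 with 6, and B4galt5, Irs2, Bahcc1, Cd9, Tomm20, Trim27, S1pr1 and Tent5c with 5. Azin1, an antizyme inhibitor that protects ornithine decarboxylase from degradation, had 6 of its 7 called in all 6 lists. The strongest member among all of these lay upstream of B4galt5, which adds galactose to glycolipids, at 34360 bp. In the aged lists it stood at 99.9, 99.6 and 98.7, and in the young at 99.1, 96.9 and 96.5, so the ages overlapped. Next to Irs2, an adaptor of the insulin receptor, a member at 38176 bp had 99.9, 99.02 and 96.4 in the aged and 98.7, 96.9 and 99.1 in the young lists.

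**Figure D1:**
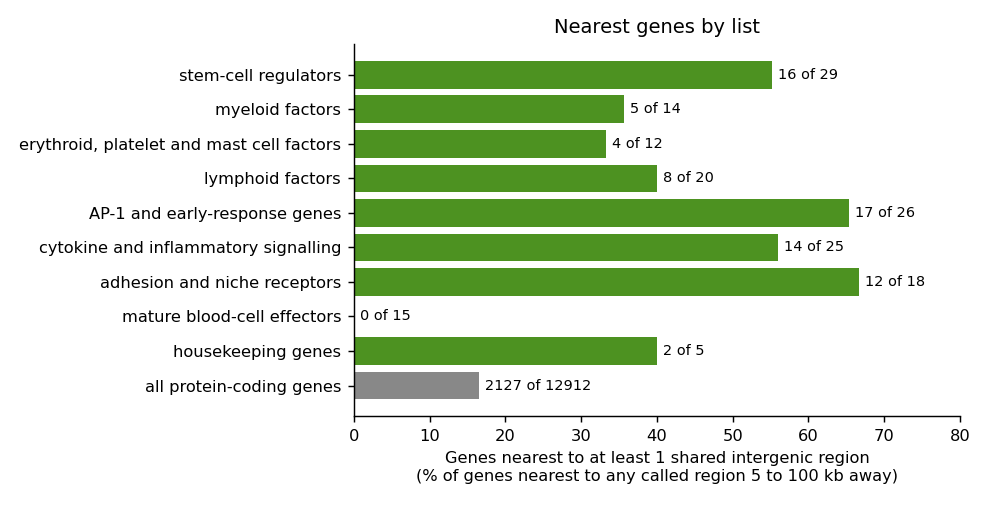
Bars show, for each list of genes, the percentage that were the nearest gene of at least 1 member, of those that were nearest to any called region 5 to 100 kb away, with the counts at the right. The bar over all protein-coding genes stands at 16.5%, adhesion and niche receptors at 66.7%, early-response genes at 65.4%, and mature blood-cell effectors at 0.

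Members stood alone or in small clusters. Chained where the gap to the next was at most 20 kb, 980 of them (33.7%) fell into 419 clusters and 1931 stood alone. Of the clusters 316 had 2 members, 81 had 3, 12 had 4, 6 had 5, 1 had 6 and 3 had 7. The same chaining put 30.2% of the shared regions at gene ends and 36.8% of those inside genes into clusters. Of the 723 intergenic ones 1 to 5 kb from a gene 11.6% fell into clusters, and of those 100 kb or more away 22.9% did. These classes differ in number and in the space they fill, so the shares are descriptions. Clustered members were called in all 6 lists in 40.7% of cases and single ones in 33.6%, with median mean percentiles of 85.3 and 83.7.

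The largest clusters showed how unequal neighbours can be. At chr17:84100540-84161903, 7 members spread over 61364 bp beside Zfp36l2, all with that gene as the nearest, and 4 were called in 6 lists. Their mean percentiles ran from 76.6 to 95.5. The lowest of them had 93.4, 89.2 and 82.7 in the aged lists and 91.1, 12.95 and 90.2 in the young, so young replicate 2 set its place. At chr2:30658040-30719579, 7 members lay between Cstad and 1700001O22Rik, all at least 49095 bp from the nearer gene. The strongest of these was missing from young replicate 2 and stood at 96.1 to 99.4 in the other 5 lists, while a neighbour stood at 58.5 to 75.7. At chr10:59907761-59944107, 7 members filled the gap between Dnajb12, a co-chaperone, and Ddit4, an inhibitor of mTORC1 signalling that stress switches on. That cluster spanned 36347 bp, and its mean percentiles were 79.8 to 95.2. The other clusters named by size held 6 members between Lrrc74a and Irf2bpl on chromosome 12 and 5 upstream of B4galt5 on chromosome 2.

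**Figure D2:**
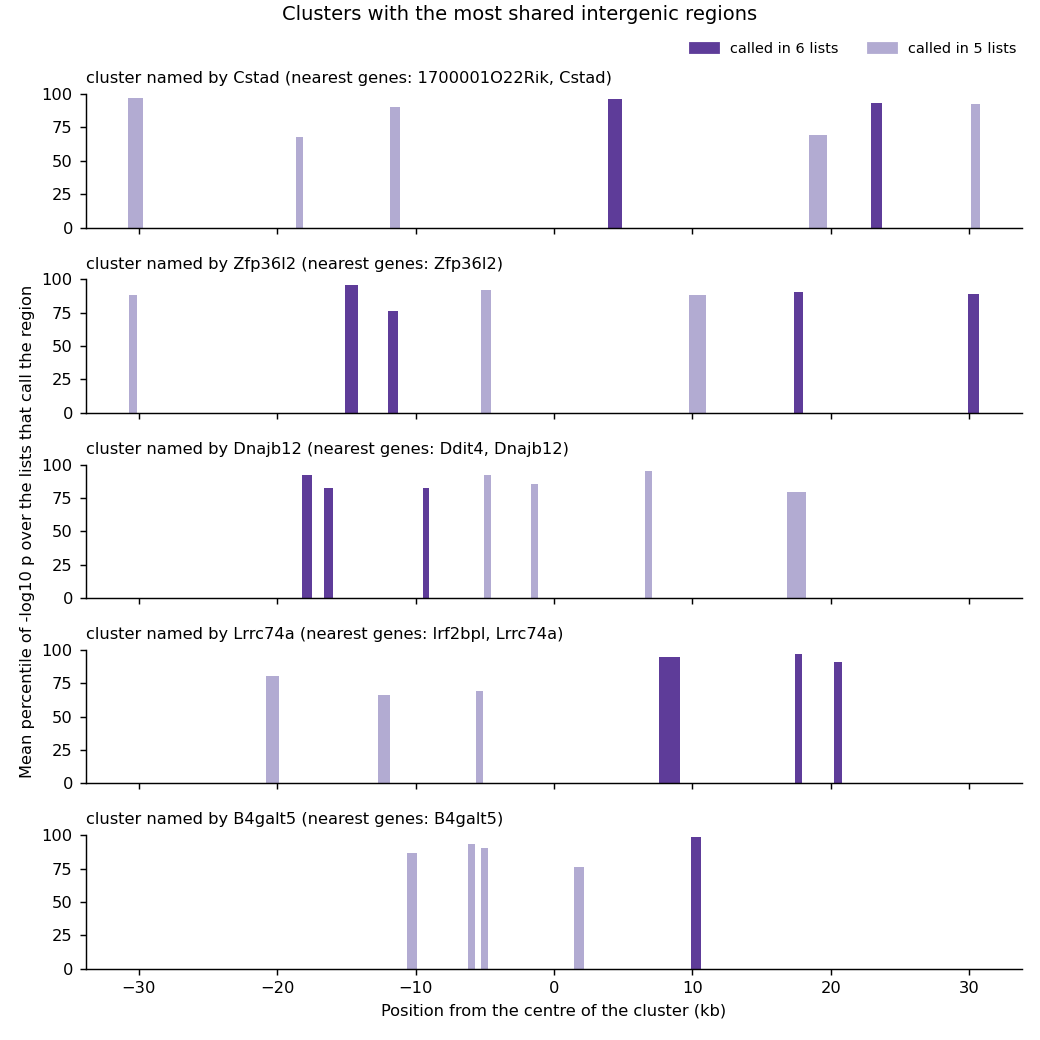
Each panel is a cluster with the most members, with the position in kb from its centre on the x axis and the mean percentile of -log10 p, over the lists that call a member, as bar height. Bar width is the width of the region, and dark bars are members called in 6 lists. In the Zfp36l2 cluster 4 of 7 bars are dark, and heights run from 76.6 to 95.5.

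Members thinned out with distance, whereas called regions at large did not. The median distance to the nearest gene end was 22494 bp (quartiles 11442 and 44822). There were 6.12 members per Mb of territory at 5 to 10 kb, 5.58 at 10 to 20 kb, 4.48 at 20 to 50 kb and 3.37 at 50 to 100 kb. Regions called in at least 1 list numbered 353, 350.3, 349.9 and 346 per Mb in the same bins. The share of called regions that 5 or 6 lists called was thus 1.73%, 1.59%, 1.28% and 0.973%. Strength varied little with distance: the median mean percentile was 85.4, 84.0, 84.3 and 83.4 in that order, and the median width of a region 602, 604, 591 and 573 bp. Where the strand of the gene was known, 1259 of 2241 members (56.2%) lay upstream, beside 54.6% of the regions called in 1 list. The strand was not known for 670.

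**Figure D3:**
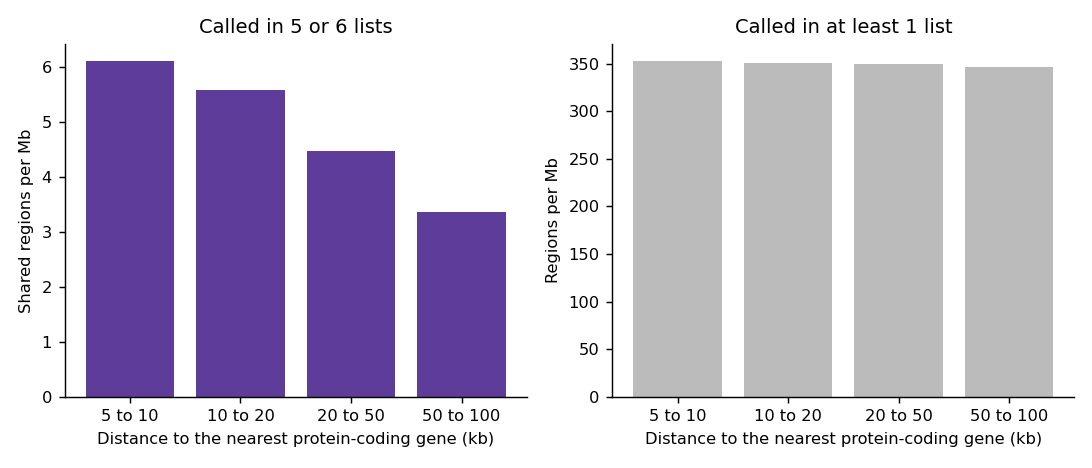
Bars give regions per Mb of intergenic territory against the distance to the nearest protein-coding gene, for the members at the left and for regions called in at least 1 list at the right. The left bars descend from 6.12 to 3.37 and the right bars from 353 to 346, on separate axes that start at 0.

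The limits of distance split regions that lie at almost the same distance from a gene, though their mean percentiles differed. Each mean covers only the lists that called the region. The member nearest to the lower limit lay 5005 bp from H2-T24, called in 5 lists at a mean percentile of 82.4, and the region just below the limit lay 4991 bp from Sbpl, called in 6 at 70.8. At the upper limit the outermost member lay 99952 bp from Gm38457, called in 6 lists at 85.2, and the nearest region beyond it lay 100377 bp from Gm9733, called in 5 at 70.9. For the number of calls, intergenic regions of the same position called in 4 lists had a median mean percentile of 74.3, those called in 5 had 81.5 and those called in 6 had 88.0. Those called in 1 list had 42.8.

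Within the lists, members ranked high but below the shared regions at gene ends. The median percentile of a member was 93.9, 89.1 and 85.3 in aged replicates 1, 2 and 3, and 94.2, 73.1 and 87.0 in young replicates 1, 2 and 3. Shared regions within 1 kb of a gene end had 96.7, 95.1 and 95.2 in the aged and 97.4, 80.4 and 94.4 in the young lists. The difference was -6.10 ± 2.72 percentile points (mean ± SD over 6 lists) and went the same way in 6 of 6 lists. An exact 2-sided sign-flip permutation test gave p = 0.03125, the smallest that 6 lists allow, and 0.0938 after Benjamini-Hochberg adjustment over the 6 class comparisons, which does not pass 0.05. Members differed less from shared regions inside genes, at -0.732 ± 1.03 points (lower in 5 lists and tied in 1, exact adjusted p = 0.125). Against shared regions 100 kb or more from a gene the difference was 0.0972 ± 0.400 points (exact adjusted p = 0.5625), and it changed sign under other settings.

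Peak widths were ordered in the same way. The median peak of a member was 355, 457 and 259 bp wide in the aged lists and 356, 267 and 412 bp in the young, beside 185 to 229 bp over all peaks of a list. Shared regions at gene ends had 470, 699 and 381 bp in the aged and 492, 307 and 640 bp in the young lists. Members were narrower by -147 ± 75.9 bp, in 6 of 6 lists (exact permutation p = 0.03125, adjusted 0.0938). They differed by -6 ± 8.07 bp from shared regions inside genes and by 10.2 ± 15.6 bp from those far from genes (exact adjusted p = 0.225 for both). As merged regions, members had a median width of 592 bp (193 to 2153), beside 814 bp at gene ends, 612 bp inside genes and 573 bp far from genes.

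**Figure D4:**
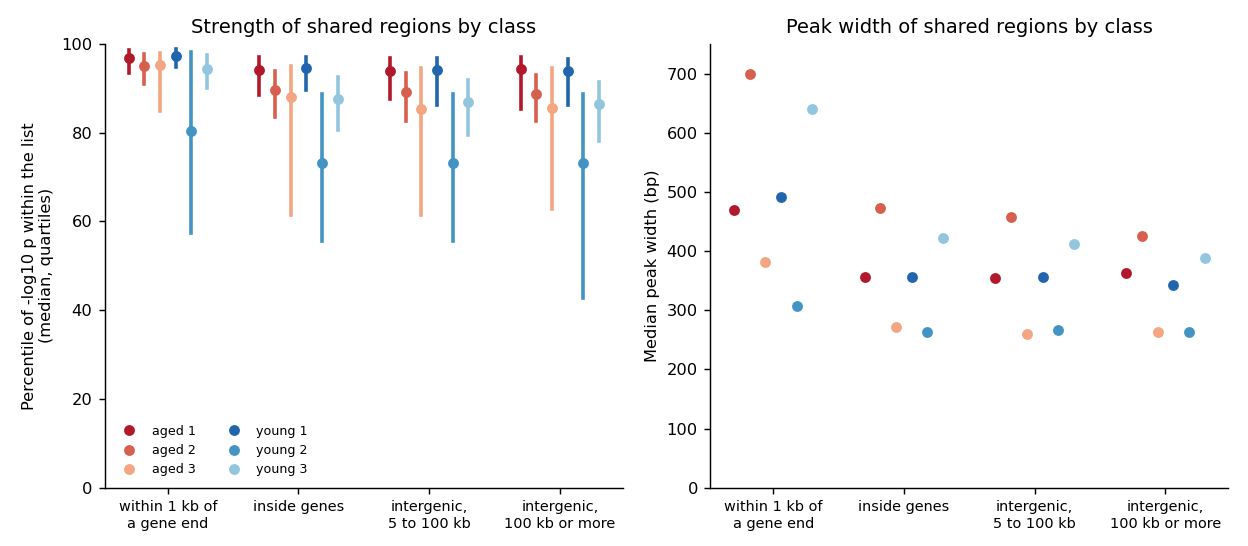
Left, the median and quartiles of the percentile of -log10 p in each of the 6 lists for shared regions of 4 positions. Right, the median peak width in bp. Points for members lie below those at gene ends in all 6 lists in both panels, and the points of young replicate 2 are the lowest in the left panel.

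The ends of genes beside a member were called in a higher share of cases than those of other genes. In each list, the share of genes with a peak within 1 kb of an end was taken over the 2127 genes nearest to a member and over 10785 genes whose best region in that position was called in 1 to 4 lists. It was 81.3, 78.5 and 62.8% against 66.4, 60.5 and 49.3% in the aged lists, and 80.9, 65.6 and 78.7% against 67.0, 51.9 and 60.1% in the young. The difference was 15.5 ± 2.32 percentage points and positive in 6 of 6 lists (exact sign-flip permutation p = 0.03125, and 0.0833 adjusted over 8 comparisons within lists, which does not pass 0.05). This comparison was added after the data were seen. By the number of lists that called the best region of a gene, from 1 to 6, an end was called in all 6 lists in 26.8, 28.2, 34.7, 39.3, 43.6 and 46% of genes. Genes with no called region in that position had 41.5%, so the order does not extend to them.

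Many members overlapped a gene that makes no protein. A non-coding gene of the RefSeq table was overlapped by 857 members (29.4%), and 190 (6.53%) covered a non-coding start window. Of the members at such starts 50% were called in all 6 lists, and of the other 2721 members 35% were. Their median percentiles were 95.3, 91.6 and 91.5 against 93.9, 88.9 and 85.0 in the aged lists, and 95.5, 73.1 and 90.6 against 94.1, 73.1 and 86.7 in the young. The difference of 2.66 ± 2.31 points was positive in 5 lists and 0 in young replicate 2, where the 2 medians are tied (exact permutation p = 0.0625, adjusted 0.1). This comparison too was added after the data were seen. The regions at starts had a median width of 700.5 bp and the others 584 bp.

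Of the kinds of non-coding gene counted, transfer RNA genes had the highest share under a region called in 5 or 6 lists. These are counts with no test. In the same intergenic position, 56 of 240 tRNA genes (23.3%) were overlapped by a region called in 5 or 6 lists, and 51.2% by a region called in any list. The same was true of 4.87% and 31.6% of start windows of long non-coding RNAs, of 5.19% and 57.1% of transcribed pseudogenes, and of 0.411% and 33.4% of other pseudogenes. For snRNA genes the shares were 1.88% and 8.15%, for snoRNA genes 0.597% and 21.2%, and for miRNA genes 1.36% and 23.8%. In all, 40 members overlapped 51 tRNA genes, and 19 of the 40 were called in all 6 lists. Chromosome 13, which carries a large tRNA cluster beside its histone genes, held 15 of these members with 16 tRNA genes. The median percentiles of the 40 were 93.4, 91.7 and 89.5 in the aged lists and 95.1, 88.8 and 89.5 in the young. Over all members the medians were 93.9, 89.1 and 85.3 in the aged lists and 94.2, 73.1 and 87.0 in the young. Every list but aged replicate 1 was thus higher at tRNA genes. Each median covers only the members that the list called, and many peaks of young replicate 2 are tied. Genes for tRNA have near-identical copies, and how reads that fit several copies were placed is not given in the sources used here, so a value at a single tRNA gene is uncertain.

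The members named for their tRNA genes were chosen after their values were seen. The strongest lay 13427 bp from Uspl1 over n-TNgtt14, an asparagine tRNA gene. It had 98.4, 98.7 and 96.0 in the aged and 99.1, 99.1 and 98.6 in the young lists. All 6 values stood in the top 5% of their list, and the ages overlapped. A member of 1008 bp beside Trim55 held 3 tRNA genes, 1 for alanine and 2 for tyrosine, at 96.4, 97.9 and 97.9 in the aged and 99.02, 99.6 and 96.7 in the young lists.

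A pair of members overlapped microRNA genes, and their mature products are printed with the seed, bases 2 to 8, in capitals, because the seed sets which messenger RNAs a microRNA pairs with. Both genes lie on the minus strand, and sequences are from RefSeq on GRCm38.p6.
mmu-let-7i-5p, chr10:122985698-122985719: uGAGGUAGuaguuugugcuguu
mmu-let-7i-3p, chr10:122985642-122985663: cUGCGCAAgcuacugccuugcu
mmu-miR-7671-5p, chr11:53763632-53763654: aGGCUCCGcucuggcuagcuucc
mmu-miR-7671-3p, chr11:53763597-53763618: aAGCGGGCaggcggagaaccac
The member over Mirlet7i, which belongs to the let-7 family of differentiation-linked microRNAs, spanned 1341 bp at 5422 bp from Mon2. Its percentiles were 91.2, 91.9 and 83.1 in the aged lists and 93.7, 1.996 and 90.2 in the young. It was high in 5 lists and near the bottom of young replicate 2. The member over Mir7671 lay 5792 bp upstream of Irf1, an interferon-response factor, with 98.1, 94.3 and 96.8 in the aged and 96.4, 55.5 and 94.3 in the young lists. The 4 seeds differ from each other.

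As a whole, members stood at ranks that differed less between the ages than among the lists of an age. To compare ages on lists of equal length, each region was ranked, in percent, among the 9376 regions of every position that all 6 lists called. The 1048 members among them had mean ranks of 42.2, 37.1 and 38.9 in aged replicates 1, 2 and 3 and of 39.0, 46.6 and 35.5 in young replicates 1, 2 and 3. The aged mean was 39.4 ± 2.59 and the young 40.4 ± 5.65 (SD, n = 3 lists each), a difference of -0.966 that lies within the spread of the lists (exact 2-sided permutation test, p = 0.8, smallest possible 0.1). Within the samples that share an exp number, aged minus young was 3.24 for replicate 1, -9.47 for replicate 2 and 3.32 for replicate 3. The sign was turned by leaving out young replicate 2 (2.33) or aged replicate 2 (0.163). The share of members called was 91.5 ± 13.2% in the aged and 87.2 ± 20.2% in the young lists, which is a description, since calls chose the members.

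Few members were separated by age, in shares close to those over all regions. All 3 aged ranks were above all 3 young ranks for 47 of the 1048 members (4.48%), beside 4.98% of all 9376 regions. All 3 young ranks were above all aged ones for 53 members (5.06%), beside 4.68%. The gap between the nearest ranks of the 2 ages had a median of 4.63 for the former and 4.97 for the latter, and at most 28.6 and 24.99. These members were picked for their lack of overlap, so their values are given with no test.

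The widest gap with the aged lists higher belonged to the member farthest from its gene, downstream of Gm38457 on chromosome 5. It ranked at 63.5, 49.1 and 47.4 in the aged and at 18.7, 14.7 and 11.3 in the young lists. A member downstream of Npnt, which encodes the matrix protein nephronectin, had 80.1, 73.3 and 77.3 in the aged and 45.3, 57.6 and 29.8 in the young lists. The member of Ets1, a factor of lymphoid cells, lay between Fli1 and Ets1, at 48264 and 44096 bp. It had 40.6, 33.8 and 29.0 in the aged and 14.6, 14.7 and 10.0 in the young lists, and was thus in the lower part of the order at both ages. The members near Krt80 and Pisd had gaps of 14.8 and 14.0.

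In the other direction, a member 12136 bp downstream of Pck1, which encodes the gluconeogenic enzyme phosphoenolpyruvate carboxykinase, ranked at 5.08, 22.7 and 13.2 in the aged and at 54.9, 51.2 and 47.6 in the young lists. The young ranks lay close together and well above the aged. A member upstream of Osbpl8, an oxysterol-binding lipid transfer protein, stood mid-order in the aged lists, at 56.2, 56.6 and 47.4. In the young lists it was high, at 94.3, 76.9 and 82.2. The member near Cdh26 had 0.448, 24.1 and 3.31 in the aged and 46.0, 43.6 and 42.8 in the young lists. It was thus almost at the bottom of the regions so ranked in aged replicates 1 and 3. Among all peaks of those lists its percentiles were 24.5 and 27.2. Members near Timm8a2 and Otulinl had gaps of 21.2 and 17.8.

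**Figure D5:**
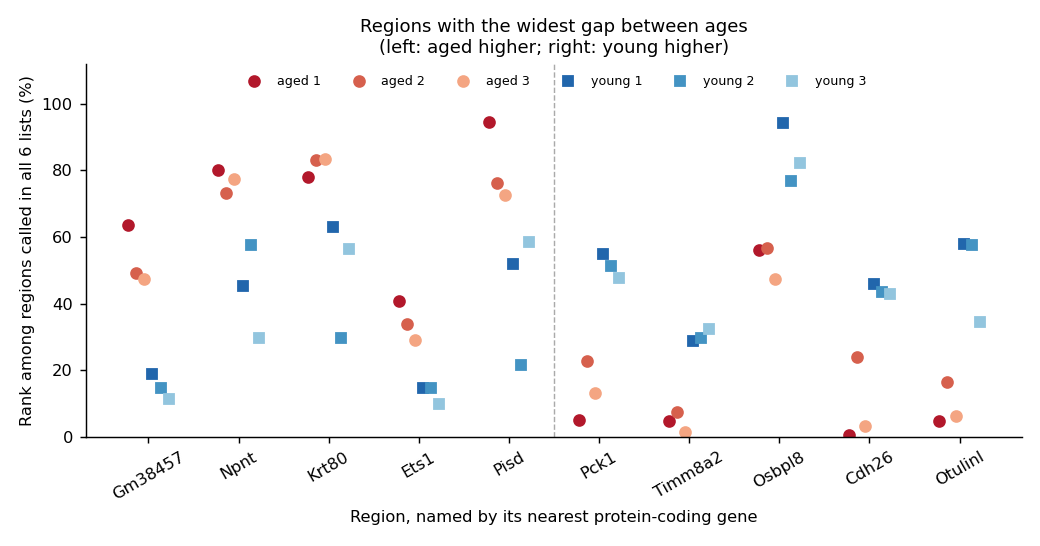
Points give the rank in percent, among the regions called in all 6 lists, of the 10 members with the widest gaps between ages, named by nearest gene. The aged circles are above the young squares in the 5 members at the left and below them in the 5 at the right, by choice of the members.

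The lists agreed on the order of members to very different degrees. Over the 1048 members called in all 6, the Pearson correlation of ranks was highest between aged replicate 2 and young replicate 3, at 0.891, which is a pair of unlike age and unlike exp number. Pairs without young replicate 2 ranged from 0.580 upwards, and pairs with it from 0.220 to 0.314. These are descriptions over regions that share their lists. The summits of a member, the point of highest signal, lay 46 bp apart in the median pair of lists, 21 bp apart between aged replicate 2 and young replicate 3, and 67 to 89 bp apart in pairs with young replicate 2. For shared regions at gene ends the median pair differed by 42 bp.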

How the data were processed

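ATAC-seq peak lists, 1 per sample, were used for 3 aged and 3 young samples, grouped by their titles. Bowtie2, SAMtools, Picard and MACS2 are named, with mm10 as build, per the submitters' processing notes. Versions, parameters, read numbers and any shift of reads for the transposase are not given in the sources used here. Peaks were called per sample, since each list has its own boundaries. A deposited list holds 5 values per peak: the -log10 of its p and of its q, a fold enrichment (a ratio over the background of that sample), a summit position, and a score that equals 10 times the -log10 p, floored, with a cap of 1000, for at least 99.99% of the peaks in every list. Peaks reach down to a deposited -log10 p of 2.00. The authors' values were used to rank or filter peaks within a list.

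Repeated intervals were reduced to distinct peaks on chromosomes 1 to 19, and peaks overlapping by 1 bp were merged over the lists. A region's percentile in a list is that of its strongest peak, with ties averaged. Genes, start windows and microRNAs came from RefSeq tables on GRCm38.p6, with gene strand known only through the start windows. Regions within 1 kb of a gene end, inside genes, and 100 kb or more away served as other classes, and the gap within clusters was at most 20 kb. Intergenic regions 1 to 5 kb away were a class of their own, given here for the share in clusters only. Python 3.11.15, NumPy 2.4.6, pandas 2.3.3 and SciPy 1.17.1 were used, and the merging, classing and tests were checked on simulated lists.

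Differences within lists were tested by exact 2-sided sign-flip permutation over the 6 lists, with Benjamini-Hochberg adjustment, and ages by an exact 2-sided permutation of 3 against 3 lists. A planned test of the share called between ages is not reported, because calls chose the members. Alternatives covered the limit on q, the overlap, the calls needed, the distance, the genes used, the cluster gap, the measure of strength, the replicate block and each list left out. The gene counts without the low-calling lists were added after the data were seen.

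The members and the gene lists were chosen with earlier results of these data known. Regions named are the 10 strongest called in all 6 lists, the 5 largest clusters, up to 5 per direction with the widest gap between ages, and those nearest to each limit. Genes named are the 15 with most members, up to 8 per list by their number of members, and non-coding genes under the 10 strongest. Other names are said to be chosen later. A few genes covered by these choices are not reported here. No genome was used here, so other member sequences are not printed.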

Additional observations from a re-analysis of the deposited data

Results flagged for a closer look

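On chromosome X, which the limits leave out, 58 regions called in 5 or 6 lists lay outside protein-coding genes and between 5 and 100 kb from the nearest one. They make up 14.1% of the 411 shared regions of that chromosome, beside 15.7% on chromosomes 1 to 19. They were singled out because they lie in data that enter no comparison.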

How the results depend on the processing

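The number of members, 2911 with the limits as given, was 1865 with peaks of q at most 0.05, 1048 with calls in all 6 lists, and 3037 to 5345 with each list left out and 4 of 5 calls needed (5345 without aged replicate 3, 5186 without young replicate 2). The share in clusters was 26.4% with the limit on q, 19.8% with calls in all 6 lists, 23.3% with non-coding genes included, 22.1% with a gap of 10 kb, 48.4% with 50 kb, and 34.1 to 45.6% with a list left out. The percentile difference from regions far from genes was -0.206 with a distance over 10 kb and -0.142 by fold enrichment. The age difference in rank ran from -3.41 to 2.33 with a list left out and was 0.163 without aged replicate 2, and that in the share called ran from -14.6 to 17.3 points. Members without overlap between ages numbered 28 (aged higher, 4.55%, beside 5.28% of all regions so ranked) and 31 (young higher, 5.04%, beside 4.62%) of 615 with the limit on q. With a list left out, where 3 lists face 2, they numbered 76 to 230 (6.98 to 11% of the members, beside 8.77 to 11.2% of all regions) and 89 to 183 (7.72 to 15.2%, beside 8.45 to 11.6%). The share of 15.2%, beside 11.6%, came without young replicate 3. Without aged replicate 3 or young replicate 2, 8 myeloid genes in both cases, 0 to 1 mature effector genes and 3287 to 3357 of all genes were nearest to a member. The causes were not tested. Differences from gene ends in percentile and width kept their direction in every alternative run, and no adjusted p passed 0.05 in any. With the replicate block the rank difference was -0.966 (exact permutation p = 1, smallest possible 0.25) and the share difference 4.27 points. Same-numbered lists, which are those that share an exp number, deviated from the mean ranks of their age with correlations of 0.0257, -0.170 and -0.0496. Of the 6 lists, 0 correlated best with their own number. Because the lists also differ in length and ties, these correlations cannot show whether same-numbered samples were handled together. The main tests left the numbers unpaired. Members at non-coding starts have no value once non-coding genes count as genes, and the share called is 100% by rule with calls in all 6 lists. Depth is unknown, so a missing call does not show closed chromatin.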
